A study of Mus musculus with 34 samples.

Results

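Coronal fractions 1 to 3 are the first 3 of 15 coronal fractions cut from the brain of 1 male C57BL/6J mouse aged 3 days, and they were chosen by the fraction number in the sample labels. They are 3 of the 34 arrays of the series, which also holds 8 horizontal and 11 sagittal fractions, each set cut from another male mouse of the same strain and age. Each coronal fraction gathers 100 slices of 5 μm, and so spans 500 μm, and its total RNA was put on 1 Agilent mouse array with 1 dye. None of the 3 mice carried an allele or received a treatment according to the labels. The 3 fractions were set against coronal fractions 4 to 15 of the same brain. They are neighbouring positions in 1 animal and not replicates, so every p-value here compares positions along that brain and says nothing about other mice. Whether the count runs from the back or from the front is not given in the labels. The working name of these fractions, the cerebellum and hindbrain end, was therefore checked against marker genes: Hoxb6, Hoxc4 and Pcp2, a Purkinje cell gene, had signal above background in all 15 coronal fractions and lay higher in each of fractions 1 to 3 than in any other, while Emx1 and Dlx2, transcription factors of the forebrain, were not well above background in any of them.

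The hindbrain is the most posterior part of the brain and is continuous with the spinal cord. Its cells keep a record of their position in the Hox genes, which lie in 4 clusters and are switched on in nested domains, with the genes of higher number confined to more posterior levels. The cerebellum grows from the front of the hindbrain, and in the newborn mouse it is still being built: granule cell precursors that express Atoh1 divide in an outer layer under the influence of Sonic hedgehog, which Purkinje cells secrete. GABAergic neurons of the cerebellum, Purkinje cells among them, come from precursors that express Ptf1a.

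A value is the authors' log2 processed signal of a probe less the 75th percentile of its array, so 0 is the level of a fairly bright probe and a difference of 1 is a 2-fold change. Detected here means that the scanner software marked the spot as well above background. Between 32468 and 35758 spots were detected on the arrays of fractions 1 to 3 and between 29598 and 36406 on those of fractions 4 to 15. The array of fraction 1 was dimmer, with a log2 75th percentile of 8.28 against 8.95 and 8.98 in fractions 2 and 3, so probes below background read higher there, and such values have no order. Fractions 1 to 8 lay on 1 slide and fractions 9 to 15 on 2 others. Results are therefore also given for fractions 1 to 3 against 4 to 8 on the same slide, and with slide as a block. Since fractions 1 to 3 lay on 1 slide, both fits estimate the same difference and vary only in the spread they use. Neither sets fractions 1 to 3 against fractions 9 to 15. For a call lost there, the slide and the change of fractions compared cannot be told apart. In a homogenate of all cells, fewer cells of a type and less RNA per cell cannot be told apart.

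Of 33788 probes detected in at least 3 coronal fractions, 1180 were higher in fractions 1 to 3 and 1618 were lower at an adjusted p under 0.05 (limma with Benjamini-Hochberg adjustment over all 33788 probes). These calls made up 3.49% and 4.79% of the probes tested. The median difference over all probes tested was -0.07. With quantile normalization the split between higher and lower calls turned from 42.2% and 57.8% to 53.6% and 46.4%, so no weight is put on which direction held more probes. All 3 values lay above all 12 others for 948 probes (2.81%) and below them for 1449 probes (4.29%). On the single slide 2000 probes (5.92%) were higher and 2740 (8.11%) lower. With slide as a block 1039 (3.08%) were higher and 1099 (3.25%) lower. Leaving out fraction 1 brought the calls down to 382 higher and 500 lower, and leaving out fraction 2 to 424 and 251. The map of named genes by fraction draws 19 of the 20 genes with the largest higher calls and 14 of the 15 with the largest lower calls.

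**Figure D1:**
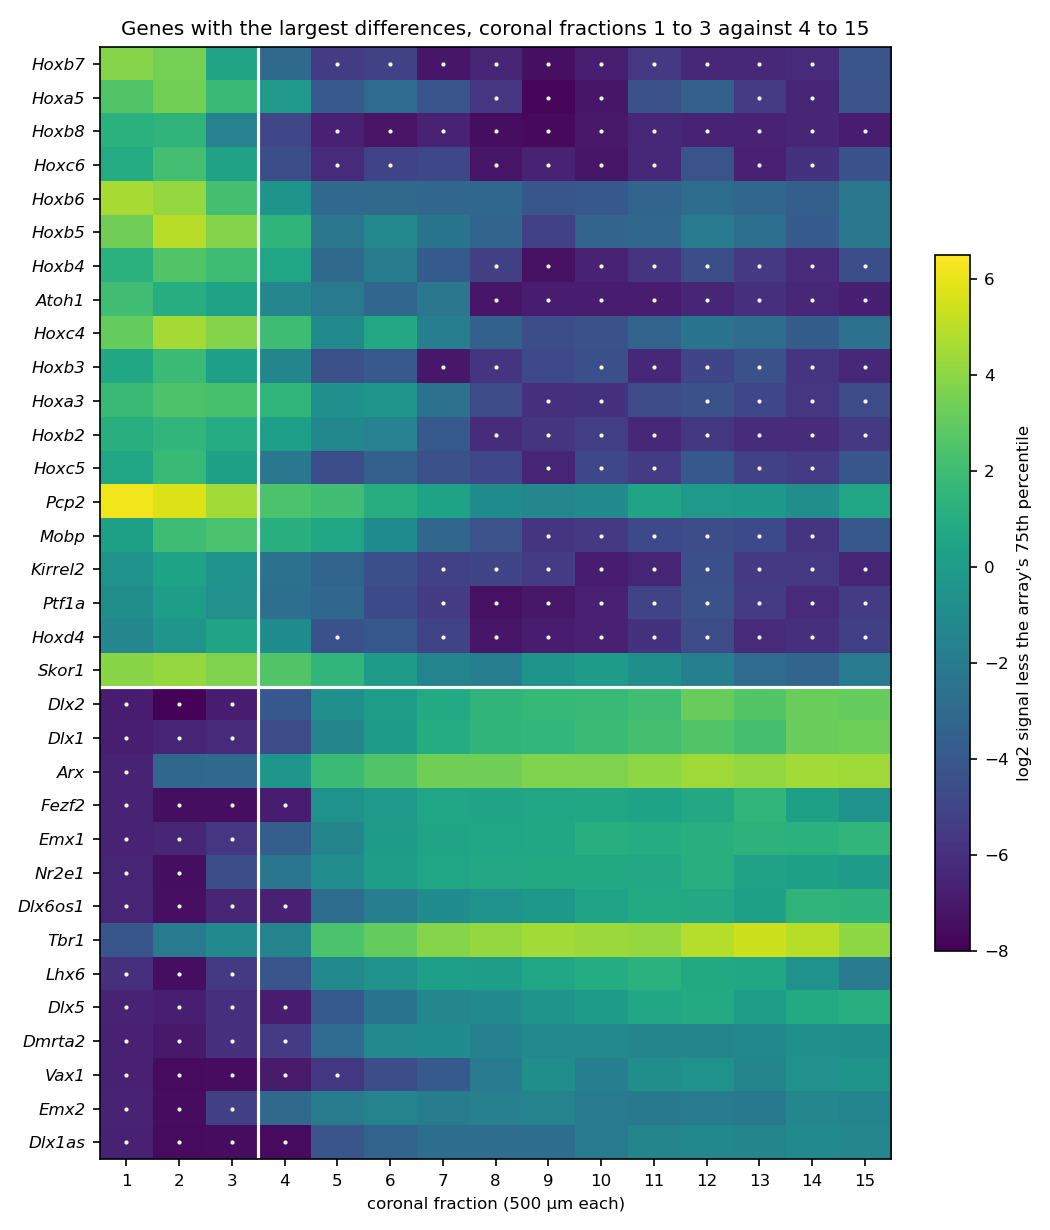
Log2 signal less the array's 75th percentile (colour) in each of the 15 coronal fractions (columns) for 19 of the 20 genes with the largest higher calls and 14 of the 15 with the largest lower calls (rows, 1 probe a gene). White dots mark values not well above background, the vertical line separates fractions 1 to 3 from 4 to 15, and Emx1 has dots in all of fractions 1 to 3 and in no other fraction.

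The Hox genes led the higher calls and took 14 of the 20 leading places, ranked by differences that include values below background. Of 26 genes in the Hox list, 21 were measured, and 20 were higher (3.49% of all probes were) and 0 lower. The median difference, 5.67, was that of Hoxb2, which was above background in 4 of the other 12 fractions, so it has no firm size. Of the 21, 5 passed the detection filter only through fractions 1 to 3 (Hoxa6, Hoxb7, Hoxb8, Hoxb9 and Hoxd4, above background in at most 2 of the other 12), so their calls were favoured by the filter. Of the other 16, 15 were higher. With detection demanded in all 15 fractions, which few Hox genes meet, 3 were higher. Hoxa9 alone did not pass, with a difference of 0.17 (adjusted p = 0.528). Hoxb1, Hoxc8, Hoxc9 and Hoxd9 were detected in 0 coronal fractions, and Hoxd8 in fractions 2 and 3 only. On the single slide 14 of the 21 were higher (5.92% of all probes there), with Hoxa3, Hoxb2 and Hoxd4 among those not called there. Depending on which fraction was left out, between 14 (without fraction 2) and 20 were called.

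Hoxb7, a gene of high number in its cluster, had log2 values of 3.84, 3.45 and 0.48 in fractions 1, 2 and 3. In fractions 4 to 15 its lowest value was -7.41, the median -6.25 and the highest -3.05, and it was detected in 2 of these 12. The groups did not overlap, and fractions 1 and 2 were the high ones. With 10 of the 12 values below background, the fitted difference of 8.42 has no firm size.

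Hoxb8 read 1.26, 1.43 and -1.55 in fractions 1, 2 and 3, and between -7.65 and -4.89 with a median of -6.62 in the others. Only fraction 4 among those 12 was above background, so no size is given for the difference. Hoxa5, a gene from the middle of its cluster, read 2.58, 3.40 and 1.78 in fractions 1 to 3, -0.19 in fraction 4 and a median of -4.34 over fractions 4 to 15, where 7 of 12 fractions were above background. Hoxb6, above background in all 15, read 4.62, 4.23 and 2.22 in fractions 1, 2 and 3 and between -4.11 and -0.47 in the others. The groups did not overlap, and the difference was 6.69 ± 0.60 (SE, adjusted p = 5e-05 by limma).

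The Hox genes differed among themselves in where the signal fell off. The division into genes numbered 1 to 5 and 6 to 9 was made after the values were seen and carries no test. Between fractions 3 and 4 the 13 genes numbered 1 to 5 fell by a median of 1.45, within a range of 0.31 to 2.54. The 8 genes numbered 6 to 9 fell by a median of 2.48, within a range of 0.07 to 4.87, which Hoxc6 set with 0.33 in fraction 3 and -4.54 in fraction 4. Hoxa2 and Hoxd3 showed the shallowest fall among the genes of low number, from -0.40 to -0.81 and from -0.79 to -1.10. Fraction 2 held the highest value of 10 of the 13 genes of low number, and fraction 3 that of the other 3, Hoxa2, Hoxd3 and Hoxd4. Of the 8 genes of high number, 5 peaked in fraction 2 and 3 in fraction 1. Hoxb9 was above background in fractions 1 to 3 and in 0 of the others, and was at least 2.67-fold higher in fractions 1 to 3, taking the lowest detected signal of each dim array as its level there.

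The promoters of Hoxb8 and Hoxa5 are shown as those of a Hox gene of high and of lower number, that of Atoh1 since it had the largest difference in the granule cell list, and that of Dlx2 as a counterpart from the lower calls. Each run is the 250 bases before the RefSeq start of the gene (GRCm38.p6), from 5′ to 3′ on the gene's strand. Capitals mark CAGCTG or CAGATG, letters that basic helix-loop-helix factors such as Atoh1 and Ptf1a can bind, or TGATTGAT, letters that Hox and Pbx proteins can bind together, on either strand. Hoxb8 lies at chr11:96281655-96281904 on the plus strand, Hoxa5 at chr6:52204588-52204837 on the minus strand, Atoh1 at chr6:64728875-64729124 on the plus strand and Dlx2 at chr2:71546755-71547004 on the minus strand.
Hoxb8: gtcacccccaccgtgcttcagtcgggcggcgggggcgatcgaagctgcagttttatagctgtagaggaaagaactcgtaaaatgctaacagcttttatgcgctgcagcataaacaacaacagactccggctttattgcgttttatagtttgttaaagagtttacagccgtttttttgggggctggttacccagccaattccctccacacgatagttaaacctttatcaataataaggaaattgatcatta
Hoxa5: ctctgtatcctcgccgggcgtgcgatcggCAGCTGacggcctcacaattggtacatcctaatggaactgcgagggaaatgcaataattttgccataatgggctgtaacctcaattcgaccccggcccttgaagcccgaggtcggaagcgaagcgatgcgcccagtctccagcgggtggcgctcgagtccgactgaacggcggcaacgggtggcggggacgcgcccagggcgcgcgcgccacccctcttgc
Atoh1: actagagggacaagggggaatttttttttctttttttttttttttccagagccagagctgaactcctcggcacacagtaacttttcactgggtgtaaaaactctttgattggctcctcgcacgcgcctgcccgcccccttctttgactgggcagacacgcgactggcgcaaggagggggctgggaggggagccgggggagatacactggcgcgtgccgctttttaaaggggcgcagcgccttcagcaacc
Dlx2: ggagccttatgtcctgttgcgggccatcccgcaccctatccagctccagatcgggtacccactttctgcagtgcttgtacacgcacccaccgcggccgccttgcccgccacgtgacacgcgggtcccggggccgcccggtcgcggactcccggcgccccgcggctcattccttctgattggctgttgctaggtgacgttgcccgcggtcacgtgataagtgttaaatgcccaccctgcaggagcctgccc
Of these 4, only the Hoxa5 window held a match, 1 CAGCTG. Promoters were found for 624 of the 815 genes with a higher call and for 655 of the 838 with a lower call. CAGCTG stood in 16.5% of the former and 12.5% of the latter, beside 14.7% of the 12480 tested genes with a promoter. CAGATG stood in 11.7%, 10.7% and 12.6% of the same sets, and TGATTGAT in 0.641%, 0.611% and 0.505%. CAGCTG reads the same on both strands. These shares lay near those of all tested genes, and a match is a run of letters, not a binding site.

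The genes of the cerebellum followed. Of 12 measured granule cell genes, 7 were higher and 0 lower (median 1.31), and of 10 Purkinje cell genes 8 were higher and 0 lower (median 1.93). Each share may be read beside the 3.49% of all probes called higher. On the single slide (5.92% of all probes higher) the counts were 8 and 7, and with slide as a block (3.08%) 7 and 6. The Purkinje count fell to 2 when either fraction 1 or fraction 2 was left out, with 2 fractions then standing for the group. Cbln3 and Gabra6, genes of mature granule cells, were detected in 0 coronal fractions.

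Atoh1, the factor of granule cell precursors, read 2.06, 1.02 and 0.33 in fractions 1, 2 and 3. In fractions 4 to 15 it lay between -7.12 and -1.29 with a median of -6.37, and was above background in fractions 4 to 7 only. The groups did not overlap, with a difference of 6.30 ± 1.25 (adjusted p = 0.00742 by limma) that rests on 8 values below background, and on the single slide the difference of 4.32 missed the threshold (adjusted p = 0.0538). Nhlh1 and Neurod1, factors of newly born granule cells and other young neurons, were higher by 2.45 and 1.98, and Pax6 and Zic1, kept on by granule cells, by 1.86 and 1.38. Nhlh1 has a dimmer probe with a difference of 0.50, so its size depends on the probe.

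Pcp2, a protein of Purkinje cells, read 6.19, 5.72 and 4.50 in fractions 1, 2 and 3. The other 12 fractions lay between -1.30 and 2.41, with a median of 0.13 and the highest value in fraction 4. All 15 were above background, and the mean level in fractions 1 to 3 was 38.5-fold that of the others (adjusted p = 0.000544 by limma). Car8, which binds the IP3 receptor, was higher by 2.86, and Calb1, a calcium buffer, by 2.26. Calb1 was called on the single slide (adjusted p = 0.0091 by limma) but not with slide as a block (adjusted p = 0.138). It was also not called without fraction 1, 2 or 3. Skor2, a nuclear corepressor of Purkinje cells, read -1.07, -1.02 and -1.80 in fractions 1 to 3 and was above background in 1 of the other 12, so that it passed the detection filter only through fractions 1 to 3. Lhx5, an early Purkinje factor that other neurons also use, read 1.37, 2.59 and 2.43 in fractions 1 to 3 and up to 2.25 elsewhere, and was not called (adjusted p = 0.149).

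Ptf1a read -0.85, 0.14 and -0.69 in fractions 1, 2 and 3 against a highest value of -2.69 in the others, and was higher (adjusted p = 0.00222 by limma). Kirrel2, an adhesion protein that lies downstream of Ptf1a, ran beside it, at -0.53, 0.40 and -0.59 against a highest value of -2.60. Both were above background in 3 of the 12 other fractions, so no size is given. Skor1, a corepressor found in dorsal hindbrain and spinal neurons and in the Purkinje lineage, was above background in all 15 and was higher by 4.82 (adjusted p = 0.00688).

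Cell division genes were higher together. Of 12 measured, 11 were higher (3.49% of all probes were) and 0 lower (median 1.25). The count stayed between 9 and 12 whichever fraction was left out and was 11 on the single slide (5.92% of all probes there). Mki67, a protein of dividing nuclei, read 4.25, 3.71 and 3.34 in fractions 1, 2 and 3. The others lay between 1.70 and 2.93, so the groups did not overlap, and the difference was 1.54 ± 0.23 (adjusted p = 0.00117 by limma). Top2a, which untangles replicated DNA, was 2.84-fold higher and Ccnb1, a mitotic cyclin, 2.63-fold. Pcna, the sliding clamp of DNA replication, read 4.91, 4.61 and 4.22 and overlapped the 4.12 to 4.49 of the other fractions, and was not called (adjusted p = 0.0971).

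The Hedgehog pathway had 8 of 14 genes higher (3.49% of all probes were) and 0 lower (median 1.01). On the single slide 10 of 14 were higher (5.92% of all probes there). Shh, the ligand, was above background in 2 of 3 and in 7 of 12 fractions, with values of -4.30, -3.67 and -3.78 in fractions 1 to 3, and was not called (adjusted p = 0.267). Its receptor Ptch1, which the pathway itself switches on, was higher by 1.15, and Boc, a co-receptor, by 1.46. Gli1, the transcription factor most used as a readout of the pathway, read 2.37, 2.08 and 1.58 in fractions 1, 2 and 3 and between -0.57 and 0.76 in the others. It was 4.36-fold higher without overlap (adjusted p = 0.00023 by limma), and Gli2 was higher by 2.38. Ccnd1, a cyclin that the pathway drives, was higher by 1.05, while Mycn and Ccnd2, 2 further targets, were not called (adjusted p = 0.207 and 0.774).

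Among glia, 6 of 11 astrocyte and Bergmann glia genes were higher (3.49% of all probes were) and 0 lower (median 0.81). Gdf10, a growth factor of Bergmann glia, read 2.66, 3.25 and 2.68 in fractions 1, 2 and 3 against -0.58 to 2.42 elsewhere and was higher by 2.39 (adjusted p = 0.0141 by limma). Hopx was higher by 1.94 and Gfap, the filament of astrocytes, by 1.62. Gfap was called on the single slide but not with slide as a block (adjusted p = 0.0776). The count was 5 on the single slide (5.92% of all probes there) and 2 with slide as a block (3.08%). It was 1 without fraction 1, 1 without fraction 2 and 2 without fraction 3. Of 15 oligodendrocyte genes 3 were higher (3.49% of all probes were) and 0 lower (median 0.91). The count was 1 on the single slide (5.92% of all probes there) and without fraction 1. It was 0 with slide as a block and without fraction 2 or 3. Mobp, a myelin protein, was the leading gene, at 0.31, 1.98 and 2.36 in fractions 1, 2 and 3 and 1.21 in fraction 4. It was not called on the single slide (adjusted p = 0.164) or with slide as a block (adjusted p = 0.116), and the gene called on the single slide was Cldn11, a tight junction protein of myelin, which was not called over all fractions. Mag, another myelin protein, read 1.33, 2.54 and 2.86 and missed the threshold (adjusted p = 0.0517). Olig2 and Pdgfra, which precursors carry, were not called.

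**Figure D2:**
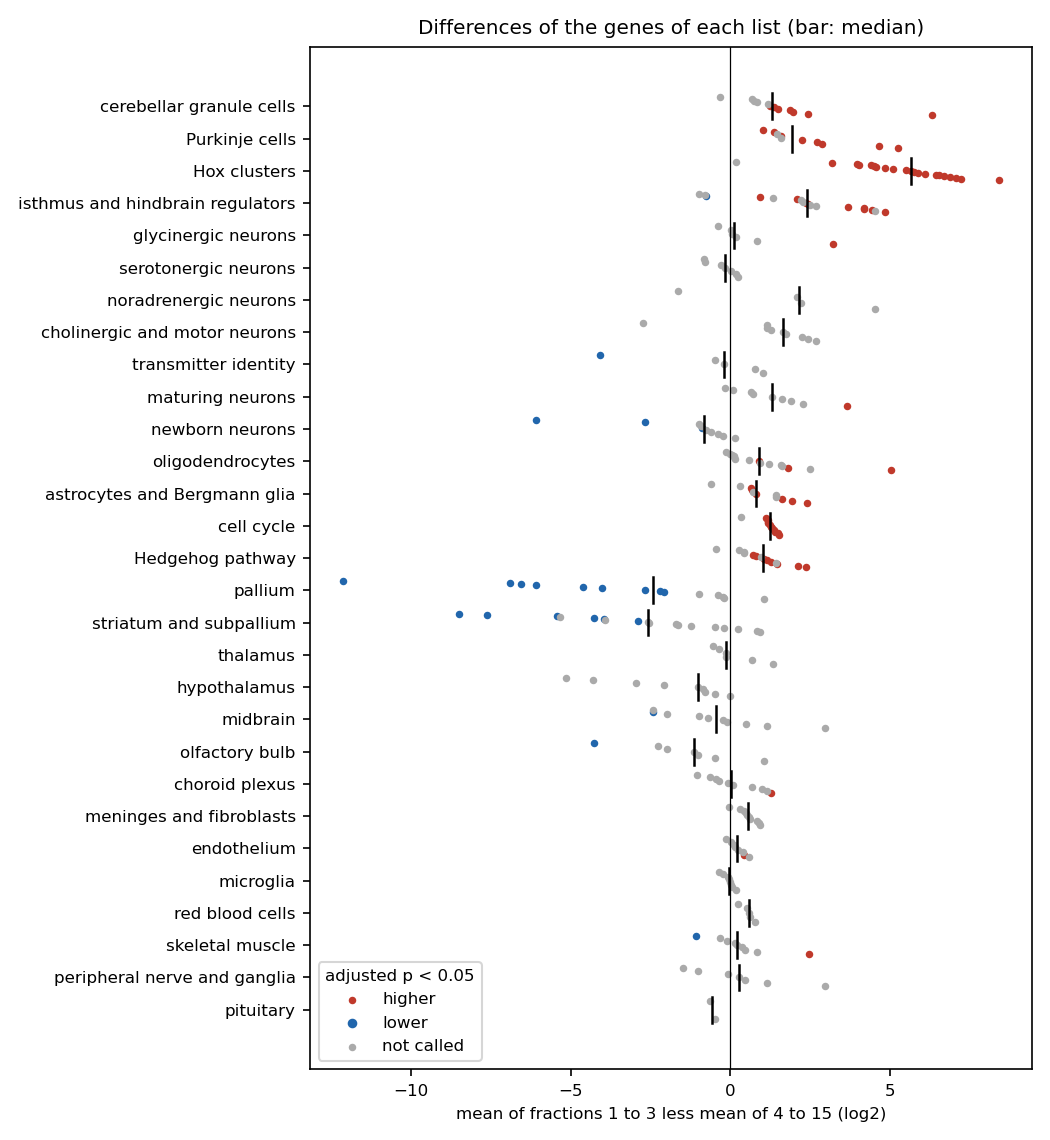
Difference between the mean of fractions 1 to 3 and that of fractions 4 to 15 (log2, horizontal axis) for each measured gene of 29 lists (rows), with the list's median as a bar and the call at an adjusted p under 0.05 as the colour. The Hox list has 20 of 21 points called higher and a median of 5.67. Values below background enter that median, so it has no firm size. The pallium list has 9 of 14 called lower and a median of -2.43.

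The neurons of the brainstem gave a mixed picture. Regulators of the isthmus, the border of midbrain and hindbrain, and of the hindbrain had 9 of 18 members higher and 1 lower (median 2.41). Of all probes tested, 3.49% were higher and 4.79% lower. En2, which patterns midbrain and cerebellum, read 2.60, 2.72 and 3.06 in fractions 1, 2 and 3 and 2.88 in fraction 4, so the groups overlapped, and on the single slide its difference of 2.23 was not called (adjusted p = 0.189). Tlx3, a selector of excitatory sensory neurons, read -1.71, -2.45 and -4.31 and was above background in 1 of the other 12. Pax2, Lbx1 and Tlx3 passed the detection filter only through fractions 1 to 3, and of the other 15 members 6 were higher. Pax3 was higher by 4.18. Pax8 was higher with overlap, and its difference of 4.44 has no firm size, as it was above background in 3 of the other 12. It was not called on the single slide (adjusted p = 0.186) or with slide as a block (adjusted p = 0.127). On the single slide 4 of the 18 were higher (5.92% of all probes there). Without fraction 1 the count was 3, and without fraction 2 it was 2.

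Serotonergic (7 genes), noradrenergic (4 genes) and cholinergic or motor (9 genes) lists had 0 higher and 0 lower calls by limma. On the single slide 1 serotonergic gene was lower (8.11% of all probes there). The values of these lists were not alike in fractions 1 to 3. Dbh, the enzyme that makes noradrenaline, read -3.41, 1.08 and 1.97 in fractions 1 to 3 and 3.26 in fraction 4. Slc6a4, the serotonin transporter, read -4.91, -2.44 and -0.22 and then 1.31 in fraction 4. Both were low in fraction 1 and highest in fraction 4 or beyond. Of 6 glycinergic genes 1 was higher (3.49% of all probes were), Glra1, a subunit of the adult glycine receptor (3.23, adjusted p = 0.0245 by limma). Glra1 was above background in 3 of the other 12 fractions, so that size is not firm. Of 9 genes of maturing neurons 1 was higher (3.49% of all probes were), Syt2, a calcium sensor of fast synapses (3.65, adjusted p = 0.0333 by limma). Neither Glra1 nor Syt2 was called on the single slide. The maturing count ran from 0 to 3 over the fractions left out and from 0 to 6 over the other settings.

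The lower calls were led by regulators of the forebrain. Of 14 pallium genes 9 were lower and 0 higher (median -2.43), against 4.79% of all probes called lower. Emx1, a factor of cortical precursors and excitatory neurons, read -6.53, -6.45 and -5.68 in fractions 1, 2 and 3, all below background, and between -3.59 and 1.53 in the others. Taking the lowest detected signal of each dim array as its level there, it was at least 46.1-fold lower (adjusted p = 0.000368 by limma). Fezf2, which specifies corticospinal neurons, was also below background in fraction 4, so the groups overlapped, and it was at least 30.7-fold lower. Tbr1, a factor of deep-layer neurons, was above background in all 15 fractions. It read -4.14, -1.95 and -1.13 in fractions 1, 2 and 3 against a median of 4.19 in the others. Fraction 4 read -1.51, so the groups overlapped. Eomes, a marker of cortical intermediate precursors that unipolar brush cells of the cerebellum also express, read 0.95, 1.33 and 1.55 in fractions 1 to 3 and was not called (adjusted p = 0.575), while on the single slide it was higher by 2.33 (adjusted p = 0.00959 by limma). Of the 14, 4 were above background in none of fractions 1 to 3 and passed the detection filter only through the other fractions. That favoured a lower call, and all 4 were lower, as were 5 of the other 10. The pallium count was 7 on the single slide (8.11% of all probes there). It was 6 with slide as a block (3.25% of all probes) and without fraction 1, 2 or 3 each time.

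Of 18 genes of the striatum and subpallium 6 were lower (4.79% of all probes were) and 0 higher. The median was -2.56, or -2.22 with the genes that have only a bound at that bound. Of the 18, 5 were above background in none of fractions 1 to 3 and passed the detection filter only through fractions 4 to 15. That favoured a lower call, and 3 of these 5 were lower, as were 3 of the other 13. On the single slide 4 were lower (8.11% of all probes there) and 1, Rarb, a retinoic acid receptor, was higher (5.92%). The count of lower genes was 3 with slide as a block (3.25% of all probes). It was 2 without fraction 1, 2 without fraction 2 and 3 without fraction 3. Dlx2 and Dlx1, factors of forebrain GABAergic precursors, were below background in fractions 1 to 3 and above it in all 12 others, and were at least 89.0-fold and at least 79.1-fold lower. Lhx6, a factor of cortical interneurons, differed between its probes: the probe named by size was at least 29.5-fold lower, and a brighter probe differed by -0.48 and was not called. Drd1, a dopamine receptor, was lower by 2.90 on the log2 scale. Drd1 was not called with slide as a block, with another background correction (normexp), or without fraction 1, 2 or 3. Penk and Tac1, neuropeptide genes also used in the brainstem, read 4.51 and 4.38 in fraction 1 and were not called. Slc17a7, the vesicular glutamate transporter of the cortex, read -5.33, -4.14 and -3.65 against a median of -0.28 and was lower (adjusted p = 0.00998 by limma). Slc17a6, its counterpart in the brainstem and thalamus, read 2.88, 3.00 and 3.29 and was not called.

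Genes of other regions were mostly uncalled. Thalamus (6 genes) and hypothalamus (9 genes) had 0 calls in either direction by limma. Avp, a neuropeptide of the hypothalamus, differed by -5.15 without overlap and missed the threshold (adjusted p = 0.0611). Pmch, another such peptide, was below background in fractions 1 to 3 and above it in 8 of the other 12 (adjusted p = 0.168). Midbrain (10 genes) and olfactory bulb (7 genes) had 1 lower call each, Nr4a2 (-2.42, adjusted p = 0.0124) and Sp8 (-4.25, adjusted p = 0.0483). Of all probes tested, 4.79% were lower. With slide as a block 4 midbrain genes were lower (3.25% of all probes there). Sp8 was not called there (adjusted p = 0.19 by limma), nor was it with each array's median or quantile normalization. Of 10 newborn neuron genes 3 were lower (4.79% of all probes were), Tbr1, Neurod6 and Dcx. Tbr1 and Neurod6 are also in the pallium list. With slide as a block (3.25% of all probes lower and 3.08% higher) 1 was lower and 1 higher. Neurod6 (adjusted p = 0.0746 by limma) and Dcx (adjusted p = 0.0582 by limma) missed the threshold there. The single slide gave 2 lower (8.11% of all probes there) and 1 higher (5.92%). Without fraction 1 or 2 the count of lower genes was 1.

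Tissues other than brain could enter a fraction at the edge. Red blood cell (5 genes), meninges and fibroblast (10 genes), microglia (8 genes), peripheral nerve (7 genes) and pituitary (2 genes) lists had 0 calls in either direction. The mean level of the meninges list was 3.43 in fraction 1, 2.46 in fraction 2 and 2.20 in fraction 3, within the 1.49 to 3.65 of the other fractions. That of the red blood cell list was 0.81, 0.03 and -0.47, within -1.09 to 1.26. On the single slide all 5 red blood cell genes were higher, beside 5.92% of all probes there. Skeletal muscle had 1 gene higher, Actc1, and 1 lower, Acta1, of 9 measured. Over all probes tested, 3.49% were higher and 4.79% lower. Ckm, Myod1, Myog and Mylpf did not pass the detection filter. Actc1 passed it only through fractions 1 to 3, and neither Actc1 nor Acta1 was called on the single slide or with slide as a block. Choroid plexus (10 genes) had 1 higher (3.49% of all probes were), Enpp2, which was not called on the single slide (adjusted p = 0.0594 by limma). Endothelium (8 genes) had 1 higher, Pecam1, by 0.44. The part of these tissues in the other results was not tested.

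**Figure D3:**
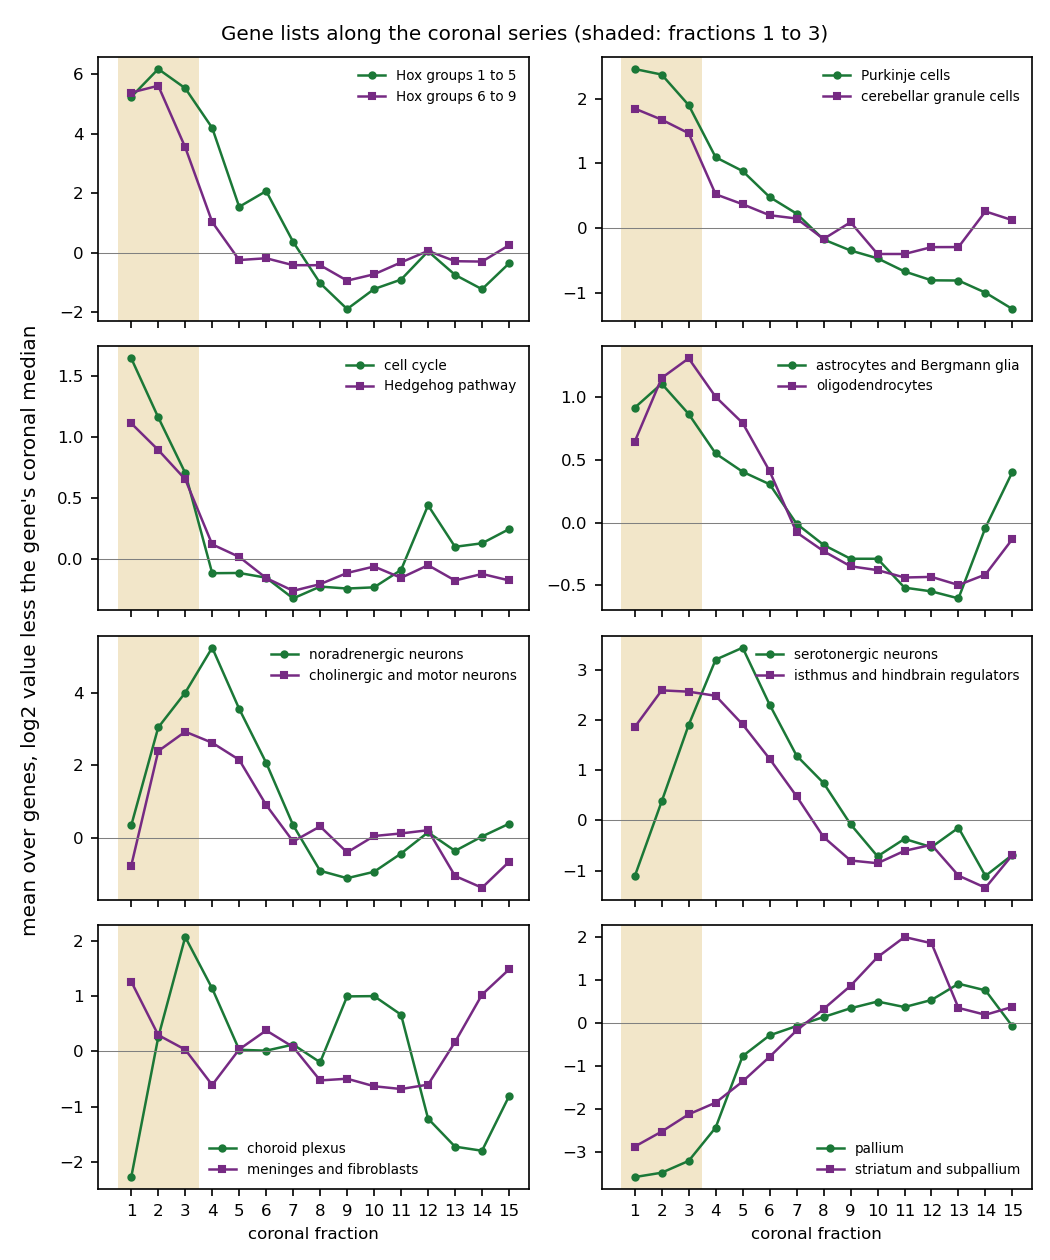
Mean over the genes of a list of the log2 value less the gene's median over the coronal series (vertical axis) in each coronal fraction (horizontal axis), with fractions 1 to 3 shaded. Cell cycle and Hedgehog pathway genes are highest in fraction 1, the choroid plexus list runs from -2.28 in fraction 1 to 2.06 in fraction 3, and the pallium list stays under -3 in all 3.

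The 3 fractions were not alike. Among probes detected in both members of a pair, 3.65% of 29323 differed by at least 2-fold between fractions 1 and 2, 2.0% of 31476 between fractions 2 and 3, and 7.43% of 29225 between fractions 1 and 3, where 1514 were higher in fraction 1 and 657 in fraction 3. Between fractions 3 and 4 the share was 2.55% of 31662. Each fraction has 1 array, so these differences have no test. Of the 1167 higher probes that peaked in fractions 1 to 3, 73.2% peaked in fraction 1, 19.5% in fraction 2 and 7.4% in fraction 3, beside 68.1%, 15.3% and 16.6% of the 6097 tested probes that peaked there.

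The lists differed in which of the 3 fractions was highest, as 7 of the 29 show. The mean of the cell cycle list, centred on each gene's coronal median, was 1.65, 1.16 and 0.70 in fractions 1, 2 and 3, that of the Hedgehog pathway list 1.11, 0.89 and 0.65, and that of the Purkinje cells list 2.46, 2.37 and 1.90. These were highest in fraction 1. That of the Hox clusters list read 5.30, 5.97 and 4.78, so that fraction 2 was the highest. The oligodendrocytes list read 0.65, 1.16 and 1.31, the noradrenergic neurons list 0.34, 3.05 and 4.01, and the serotonergic neurons list -1.12, 0.38 and 1.90. These were lowest in fraction 1 and highest in fraction 3.

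The choroid plexus lies in the ventricles and makes cerebrospinal fluid. Ttr, the transthyretin that it secretes in bulk, read -0.99 in fraction 1, 6.47 in fraction 2 and 8.33 in fraction 3, and 7.32 in fraction 4. Fraction 1 lay below the lowest of the other 12 fractions, 2.66, and fraction 3 above their highest, 7.59. The difference was not called (adjusted p = 0.708), and leaving out fraction 1 turned the difference from -1.06 to 1.74.

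Fraction 4 lay between the groups. Of the 1180 higher probes, 314 (26.6%) read in fraction 4 nearer to the mean of fractions 1 to 3 than to that of fractions 4 to 15, and of the 1618 lower probes 38.6% did. Both Emx1 and Hoxb7 were above background there. Of the 20 leading higher genes, Hoxd4 and Mobp had values in fraction 4 within the range of fractions 1 to 3.

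The horizontal and sagittal series came from other mice, cut along other axes, and their values were not used to choose any probe. In the horizontal series 40.0% of the higher probes had their highest value in fraction 4 and 15.3% in fraction 5, against 3357 and 2269 of all 33340 tested probes that the horizontal series detected. Lower probes peaked in horizontal fraction 3 (33.3%) and fraction 2 (26.3%), against 13.1% and 24.4% of all. In the sagittal series the higher probes were spread over the middle, with 16.9% in fraction 6, 13.3% in fraction 7 and 12.8% in fraction 9, against 10.0%, 5.1% and 4.1% of all. The ends held few, with 4.2% in fraction 1 and 4.0% in fraction 11, against 27.8% and 11.2%. Sagittal fractions 1 and 11 each pooled 2 cut fractions, while every other sagittal fraction held 1. Lower probes peaked in fraction 1 (35.0%), fraction 10 (18.8%) and fraction 11 (18.1%), against 27.8%, 7.5% and 11.2% of all.

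**Figure D4:**
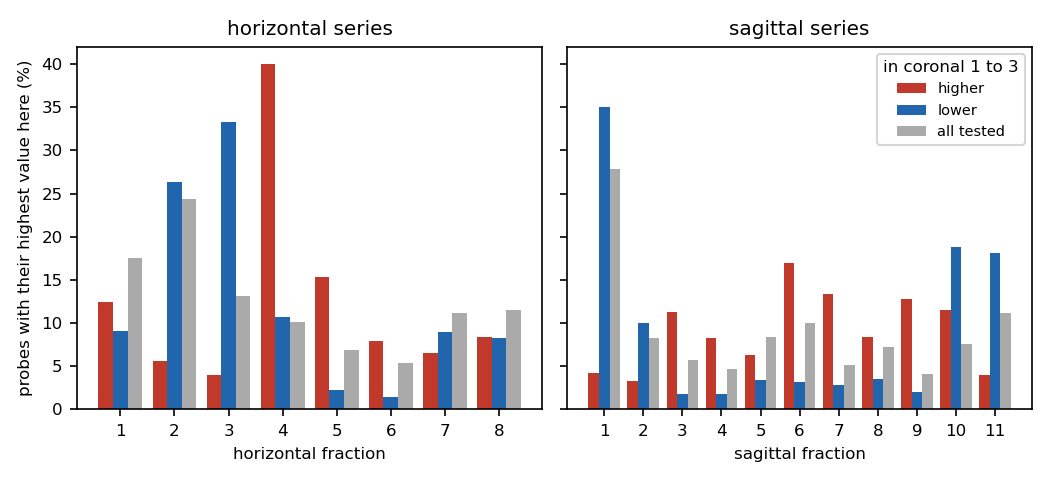
Share of probes whose highest value in the series falls in a given fraction (vertical axis, percent) for the horizontal series (left) and the sagittal series (right), for probes higher in coronal fractions 1 to 3, probes lower there and all probes tested. Horizontal fraction 4 holds 40.0% of the higher probes and 3357 of all 33340, and sagittal fraction 1 holds 4.2% of the higher probes and 27.8% of all. Sagittal fractions 1 and 11 each pool 2 cut fractions.

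The lists called higher did not share a horizontal position. Of the 12 cell cycle genes 11 peaked in horizontal fraction 4, as did 6 of 10 Purkinje genes and 6 of 14 Hedgehog genes, and Atoh1, Pcp2, Ptf1a and Kirrel2 among the leading genes. Hox genes numbered 1 to 5 peaked mainly in horizontal fraction 6 (9 of 13) or 7 (3 of 13), and all 7 genes numbered 6 to 9 that were detected in that series peaked in fraction 5. Of 15 oligodendrocyte genes 9 peaked in fraction 6, and 8 of 10 choroid plexus genes in fraction 5. In the sagittal series the Hox groups 6 to 9 had a mean between 1.32 and 1.79 in fractions 5 to 9 and between -1.84 and -0.34 in all other fractions, while the cell cycle list stayed between -0.25 and 0.17 throughout.

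**Figure D5:**
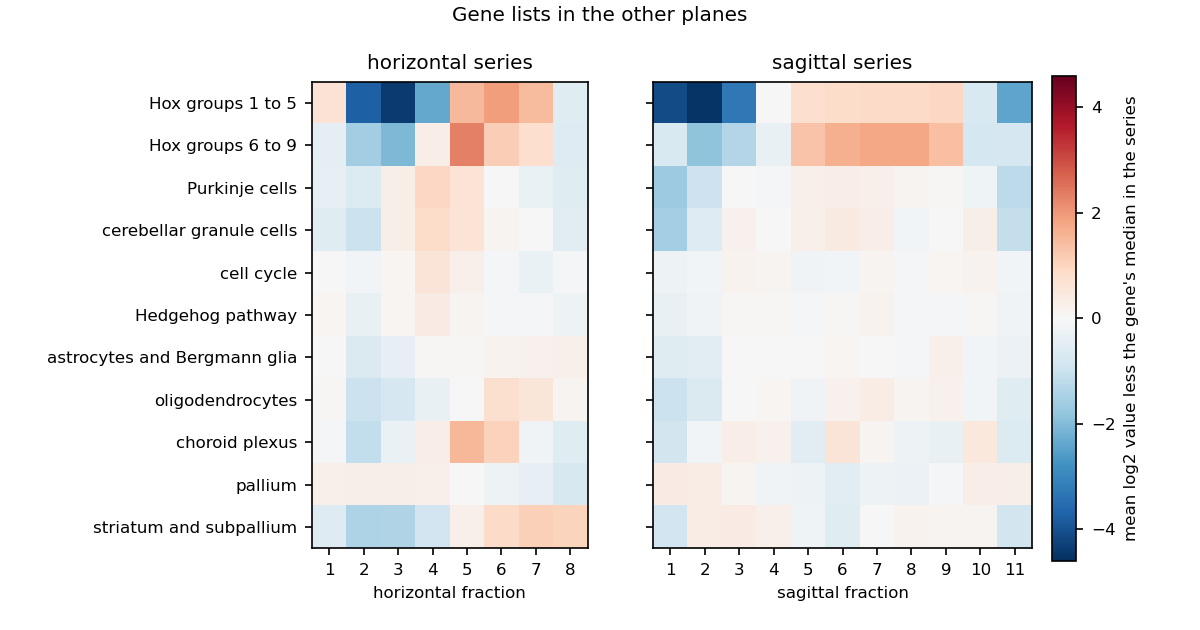
Mean over the genes of a list of the log2 value less the gene's median in the series (colour) in the 8 horizontal fractions (left) and the 11 sagittal fractions (right). The cell cycle and Purkinje lists are highest in horizontal fraction 4, at 0.60 and 0.94, and Hox groups 1 to 5 in horizontal fraction 6, at 1.91.

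The array also carries probes for long non-coding RNAs, each placed by a stretch of mm9. Of 6373 such probes tested, 107 (1.68%) were higher and 305 (4.79%) lower, beside 3.91% and 4.79% of the other 27415. The largest higher difference was that of A_30_P01020836, on the reverse strand of chr15:102926581-102932542. It read -2.63, -1.64 and -2.67 in fractions 1, 2 and 3 and was above background in fraction 4 alone among the others. A_30_P01029053, from the same strand of the wider stretch chr15:102920547-102933472, read -3.56, -3.10 and -3.59 and was above background in 1 of the others. Both passed the detection filter only through fractions 1 to 3, so no size is given. Of the 5 reverse-strand probes tested in that stretch, all 5, these 2 included, were called higher, and 3 forward-strand probes that overlap it differed by between 0.05 and 0.23 and were not called.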

How the data were processed

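The authors labelled total RNA of each fraction with Cy3 and scanned the arrays, and Agilent Feature Extraction 10.10.1.1 gave the intensity of each spot, its local background and its flags, per the file headers. The deposited series table holds log2 values of 43199 probes. Each array's values are its processed signal on the log2 scale with 1 constant subtracted, to within 0.02 for 99.92% of them. The constant differed from the 75th percentile by at most 0.012. Symbols came from accessions in the files matched to RefSeq (GRCm38.p6), for 20824 of the 33788 probes tested, and the others keep their probe ID.

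Probes well above background in at least 3 coronal fractions were tested on the deposited log2 values (lmFit and eBayes of limma 3.58.1, R 4.3.3, coronal 1 to 3 against 4 to 15, Benjamini-Hochberg adjusted p under 0.05). Tested on simulated data of 33788 probes, the fit recovered 55 of 100 planted differences of 1 and 91 of 100 of 2 (log2). In these data 8 unplanted probes were called, and 0 were called where no difference had been planted. The rate of false calls among neighbouring fractions of 1 brain, whose values can be alike, was not tested. Where a probe was below background on every array of a group, a fold is a lower bound against the lowest detected signal of each dim array. Genes named were the 20 largest higher and 15 largest lower calls (1 probe a symbol), up to 5 members of each of 29 gene lists by size of difference, and 2 long non-coding RNA probes each way. For list genes with several probes, the probe with the highest mean coronal value was used. Other genes named (among them Hoxa2, Hoxb9, Hoxd3, Zic1, Pcna, Ccnd1, Eomes, Penk, Tac1 and Slc6a4) were chosen after their values were seen. Some genes and probes that this rule names are not reported here. The fractions, lists and tests were chosen with earlier results of these data known.

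Alternatives were each array's median, quantile normalization, the scanner's signal intensity less its 75th percentile, normexp with offset 50 on the median signal less background (the mean signal was not used here), no detection filter or detection in all 15 fractions, slide as a block or 1 slide only, leaving out fractions 4 to 6 or any 1 fraction, limma-trend, and a minimum difference of 1. The number of arrays limits the precision. Figures were drawn with Python 3.11.15 and matplotlib 3.10.9.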

Additional observations from a re-analysis of the deposited data

Results flagged for a closer look

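In the horizontal series, the mean of the 8 endothelium genes, each centred on its median in that series, was 0.49 in fraction 1, and the next highest fraction read 0.16. The gap to the nearest fraction was 0.532 of the whole range, beyond the limit for 8 values. It was the only such case among 35 profiles examined, where chance flags about 1 in 20.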

How the results depend on the processing

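Apart from leaving out 1 fraction, the alternatives kept both counts within 1.5 times 1180 higher and 1618 lower, except the fit on the single slide of fractions 1 to 8 (2000 higher, 2740 lower), the fit without fractions 4 to 6 (2823 lower) and the demand for a difference of at least 1 on the log2 scale (630 higher, 510 lower, fewer by construction). Slide as a block gave 1039 higher and 1099 lower, of which 736 and 706 were among the calls reported. Leaving out 1 fraction gave between 382 and 1729 higher probes and between 251 and 2541 lower ones. The lowest counts came without fraction 1 or fraction 2, the highest without fraction 15, and leaving out fraction 2 turned the share of higher calls from 42.2% to 62.8%. The cause was not tested. For 92 named genes and probes, 1230 of 1380 comparisons that left out 1 fraction and 796 of 872 others kept direction and side of the threshold. The difference of Ttr turned to 1.74 without fraction 1, within a range of -2.92 to 1.74 over the fractions left out. Hoxa9, not called, turned to -0.015 with normexp and ranged from -0.002 to 0.361 over the fractions left out. Demanding detection in all 15 coronal fractions left 3 Hox genes higher and 0 genes of the striatum and subpallium lower, with fewer genes tested. No paired analysis was possible because fractions of different series share only a position number and coronal 1 to 3 and 4 to 15 share none. A probe below background has only a bound. With 3 positions in the group, the fit recovered 55 of 100 differences of 1 planted in simulated data.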
